A study of Mus musculus with 8 samples.

Results

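The 7SK small nuclear RNA (Rn7sk), the 3 proteins that make up its ribonucleoprotein (Hexim1, Larp7 and Mepce) and the genes of the kinase it holds (Cdk9, Ccnt1 and Ccnt2) were followed in the nuclei of mouse pancreatic islets. All 7 genes were among the 17362 genes of the table. They were chosen by function with the measured Rn7sk values of this table already known, so the levels and ratios below are descriptions and carry no test. Islets came from wild type (WT) mice and from mice with a whole-body Med14 S983A knock-in (mutant), in which a serine of the Mediator scaffold subunit Med14 is changed to alanine in all tissues. The mutant line is C57BL/6J, and the sources used here give no age or sex of the mice. From either genotype some islets received no agent (CON). Others were exposed to Exendin-4 (Ex-4, a GLP-1 receptor agonist, 10 nM for 16 h) or to forskolin (FSK, a direct activator of adenylyl cyclase, for 16 h). The sources used here do not give the islet dose of FSK. Nuclei from about 100 hand-picked islets per condition were sorted and barcoded together, and the table gives 1 value for each of 6 conditions in each of 9 cell types. There is no replicate of any condition, and the condition cannot be told apart from the islet preparation or the barcoding well.

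7SK is an abundant noncoding RNA made by RNA polymerase III in every nucleus. It serves as a scaffold that keeps the positive elongation factor P-TEFb, a kinase made of Cdk9 and cyclin T1 or T2, in an inactive store. When P-TEFb is freed from 7SK it phosphorylates RNA polymerase II and the factors that hold it paused near promoters, and transcripts are then elongated. In these complexes Hexim1 is the inhibitor that blocks the kinase, Larp7 holds and protects the 3′ end of the RNA, and Mepce places a methyl cap on its 5′ end.

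Levels are given as CP10K, the counts of a gene per 10000 counts of its column, with exact Poisson 95% intervals in parentheses. Ratios between columns carry exact 95% intervals from the binomial distribution of the paired counts. Both cover counting error only, and neither includes differences between animals or preparations. Column totals ran from 1915006 to 3094377 counts in beta cells, from 269394 to 810127 in alpha cells and from 362410 to 631433 in delta cells, but from 1522 to 159305 in the other 6 types. Rn7sk was at 0 in 3 of the 54 columns, Ccnt2 in 7, Ccnt1 in 8, Cdk9 in 16, Larp7 in 19, Mepce in 28 and Hexim1 in 32. The protein-coding members can therefore be compared in beta cells and, with few counts, in alpha and delta cells.

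The gene of 7SK is the source of its reads and is shown first because its length and its copies in the genome bear on every value below. Rn7sk lies at chr9:78082585-78082915 on the minus strand (GRCm39, GENCODE M39), is 331 bases long, has no intron and overlaps no other annotated gene. Its first 100 bases and its last 40 bases are printed, since they hold the features the partner proteins are known for. Capitals mark the GATC repeats (GAUC in the RNA, the motif of the 5′ hairpin known for binding Hexim1) and the run of T at the 3′ end (the oligo-U tail that Larp7 holds).
7SK bases 1 to 100: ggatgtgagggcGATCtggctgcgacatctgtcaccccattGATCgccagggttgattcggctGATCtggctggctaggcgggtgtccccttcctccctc
7SK bases 292 to 331: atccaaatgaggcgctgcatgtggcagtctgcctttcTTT
GATC begins at bases 13, 42 and 64, and these 3 are the only ones in the RNA. The RNA ends in 3 T, contains no TTTT, has 58.0% G or C and holds no run of A longer than 3 bases. A BLAST search of GRCm39 found 293 alignments of 7SK at an E-value limit of 1e-05, and none besides Rn7sk itself had at least 90% identity over at least 90% of the length. There were, however, 11 partial copies of at least 100 bases at 90% identity or more, 229 to 246 bases long. They reach no further than base 249 of the RNA, and 1 of them was identical to 7SK over 241 bases (72.8% of its length). The last 82 bases thus had no such copy. The sources used here do not say how reads from the copied stretch were counted, so the level of Rn7sk is uncertain. The 11 copies overlap 6 genes of the table (Atl1, Celf2, Gm55604, Gm56244, Ncam2 and Nrf1), and the part of reads from these genes in the Rn7sk values was not tested.

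In beta cells Rn7sk was lowest in mutant FSK and highest in WT FSK. Among WT columns its level was 1.52 CP10K with CON (1.38 to 1.67, 458 counts), 3.43 with Ex-4 (3.22 to 3.65, 1022 counts) and 7.30 with FSK (7.002 to 7.61, 2259 counts). In the mutant it was 2.93 in CON (2.69 to 3.18, 564 counts), 5.15 in Ex-4 (4.83 to 5.48, 986 counts) and 1.12 in FSK (0.992 to 1.27, 259 counts). No 2 neighbours in the order mutant FSK, WT CON, mutant CON, WT Ex-4, mutant Ex-4, WT FSK had overlapping intervals. Highest and lowest differed 6.49-fold. Ex-4 columns were above CON columns in both genotypes, and FSK columns were on opposite sides of CON.

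The 3 proteins of the 7SK particle were low in nuclei and followed a different order. Hexim1, the inhibitor, stood at 0.0465 CP10K in untreated WT (14 counts), 0.111 in WT Ex-4 (33), 0.0226 in WT FSK (7), 0.120 in mutant CON (23), 0.0522 in mutant Ex-4 (10) and 0.0261 in mutant FSK (6). Larp7, the 3′ end binding protein, stood at 0.113 (34), 0.258 (77), 0.0485 (15), 0.244 (47), 0.261 (50) and 0.0651 (15) in the same columns. Mepce, the capping enzyme, stood at 0.0730 (22), 0.134 (40), 0.0226 (7), 0.213 (41), 0.198 (38) and 0.0347 (8). All 3 were lowest in the 2 FSK columns, with WT FSK below mutant FSK in each, although the intervals of those 2 columns overlapped.

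The P-TEFb genes did not move as a unit. Cdk9, the kinase, was 0.120 CP10K in untreated WT (36 counts), 0.245 in WT Ex-4 (73), 0.0517 in WT FSK (16), 0.343 in mutant CON (66), 0.266 in mutant Ex-4 (51) and 0.104 in mutant FSK (24), the same order as Mepce. Ccnt1, cyclin T1, ran only from 0.608 in WT FSK (188 counts) to 0.798 in WT Ex-4 (238 counts). Ccnt2, cyclin T2, ran from 1.203 in mutant FSK (277 counts) to 1.54 in WT CON (464 counts). The span from lowest to highest was 1.31-fold for Ccnt1 and 1.28-fold for Ccnt2, against 5.28-fold for Hexim1, 5.39-fold for Larp7, 9.41-fold for Mepce and 6.63-fold for Cdk9. Per kilobase of gene, the mean level over the 6 beta columns was 10.8 CP10K for Rn7sk and between 0.00928 (Larp7) and 0.0419 (Ccnt2) for the others.

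**Figure D1:**
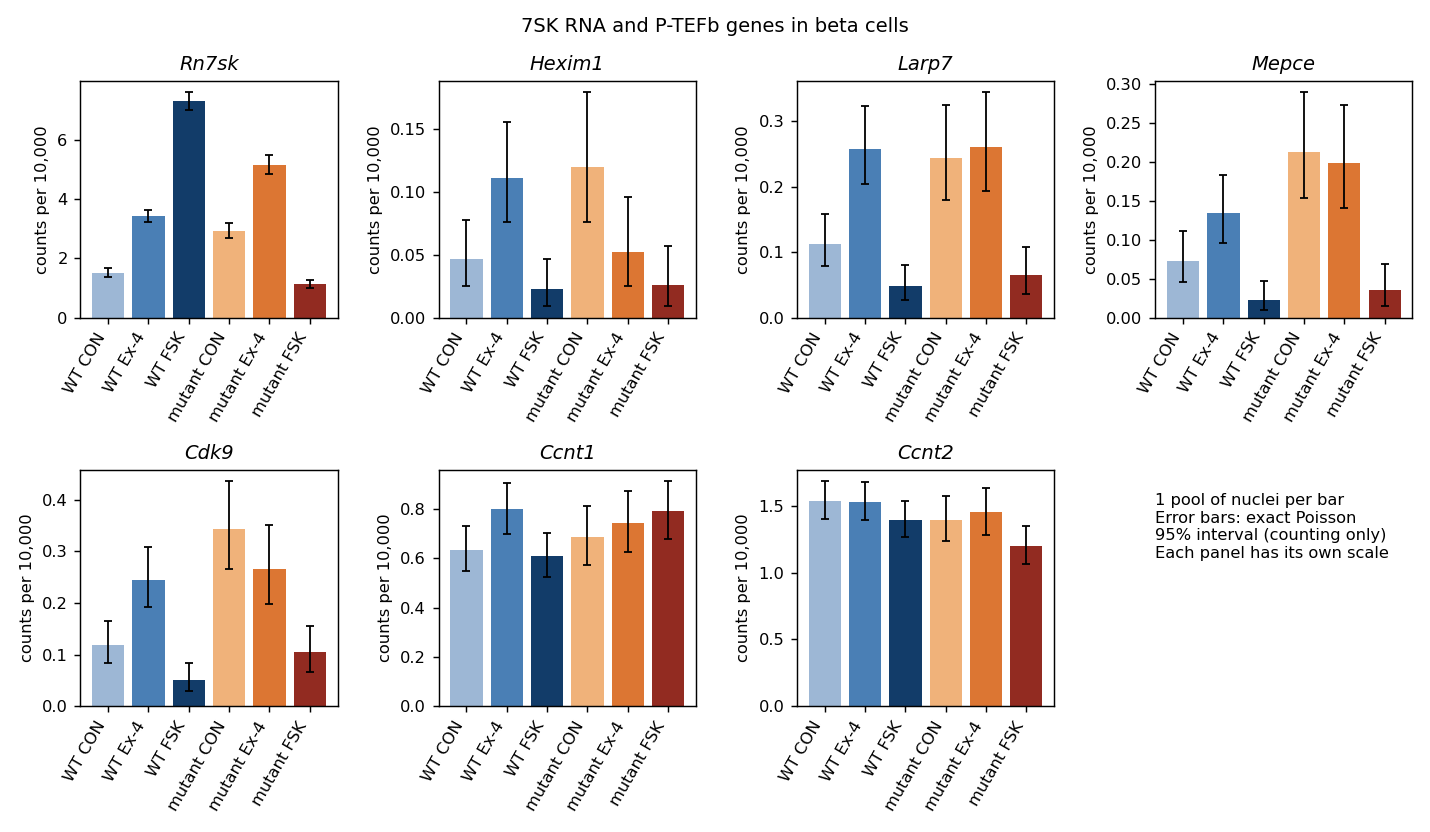
Levels of the 7 genes in beta cells (y axis, counts per 10,000; bars from 0, each panel on its own scale) in the 6 conditions; each bar is 1 pool of nuclei and error bars are exact Poisson 95% intervals. Rn7sk stands at 7.30 in WT FSK and 1.12 in mutant FSK, while Hexim1, Larp7, Mepce and Cdk9 are low in both FSK columns and Ccnt1 and Ccnt2 vary by 1.31-fold and 1.28-fold.

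The first comparison asks how the genes differed between Ex-4 and CON in WT beta cells. Rn7sk was 2.25-fold higher with Ex-4 (2.02 to 2.52), but its log2 ratio became -0.33 once the trend of the ratio on gene length across all genes was removed. Hexim1 was 2.38-fold higher (1.24 to 4.82), Larp7 2.29-fold (1.51 to 3.54), Mepce 1.84-fold (1.07 to 3.25) and Cdk9 2.05-fold (1.36 to 3.15). Ccnt1 was 1.26-fold higher (1.04 to 1.53), and the ratio for Ccnt2 was 0.995 (0.873 to 1.14). In all, 5 of the 7 genes were higher by at least 1.5-fold and 0 lower, where 27.5% of the 10085 genes compared were higher and 12.4% lower. The share was larger among short genes. Of the 1047 genes of 3 to 10 kb, the length class of Hexim1, Mepce and Cdk9, 787 were higher and 9 lower. Of 25 genes up to 1 kb besides Rn7sk, 18 were higher, and of 3114 genes of 10 to 30 kb, the class of Larp7, 1277. All 7 members passed the filter on low values (the 40th percentile of the mean over conditions, 0.0603 CP10K), but Hexim1 only just, with a mean of 0.0629. Only its WT Ex-4 and mutant CON levels (0.111 and 0.120) were above that limit, so its calls against those columns are descriptions only.

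In the mutant, Ex-4 and CON differed in fewer of these genes. Rn7sk was 1.76-fold higher with Ex-4 (1.58 to 1.95), which placed it at rank 197 of 10078 genes, counted from the highest ratio. Hexim1 was lower, at 10 counts against 23, a ratio of 0.437 (0.186 to 0.955). The ratios of the others lay between 0.777 for Cdk9 (0.528 to 1.14) and 1.08 for Ccnt1 (0.847 to 1.38), with every interval including 1. Thus 1 gene was higher and 1 lower past 1.5-fold, against backgrounds of 4.42% and 5.63%. Rn7sk and its 3 proteins, which were all higher with Ex-4 in WT, were on both sides of 1 here. For Larp7 and Mepce the intervals included 1. The Hexim1 call uses its mutant CON column, which helped to carry it past the filter, so it is a description only.

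Between untreated islets of the 2 genotypes, Rn7sk was 1.93-fold higher in the mutant (1.70 to 2.18). This direction also turned when the length trend was removed, to a log2 ratio of -0.77 in beta, -0.24 in alpha and -0.59 in delta cells. Mepce (2.92-fold, 1.70 to 5.14), Cdk9 (2.87-fold, 1.88 to 4.43), Hexim1 (2.57-fold, 1.27 to 5.40) and Larp7 (2.16-fold, 1.36 to 3.47) were higher too. The ratio was 1.08 for Ccnt1 (0.860 to 1.36) and 0.907 for Ccnt2 (0.778 to 1.06). The same 5 genes as with Ex-4 in WT were past 1.5-fold, and these comparisons share the WT CON column, so a low or high draw there moves both. The Hexim1 call again uses a column that carried it past the filter. Of 10087 genes compared, 25.5% were higher and 22.3% lower. Among the 1047 genes of 3 to 10 kb, 715 were higher and 28 lower. The paper that reported these islets describes 7SK as repressed in mutant cells. The levels as deposited were the other way, with Rn7sk also 2.24-fold higher in mutant alpha and 2.04-fold higher in mutant delta cells. The reason for this difference was not tested.

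With FSK in WT, Rn7sk was separated from its partners. It was 4.80-fold higher than in CON (4.34 to 5.32), at rank 75 of 10093 genes from the highest. Mepce was 3.23-fold lower (ratio 0.310, 0.112 to 0.751), Larp7 2.33-fold lower (0.429, 0.217 to 0.810), Cdk9 2.31-fold lower (0.433, 0.224 to 0.800) and Hexim1 2.05-fold lower (0.487, 0.166 to 1.29). For Hexim1 the interval includes 1, with 7 counts against 14. Ccnt1 and Ccnt2 stood at ratios of 0.958 (0.779 to 1.18) and 0.906 (0.793 to 1.04). So 1 gene was higher and 4 were lower, against backgrounds of 6.98% higher and 33.6% lower. Among the 1047 genes of 3 to 10 kb, 33 were higher and 715 lower.

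With FSK in the mutant, Rn7sk was lower together with its partners. It was 2.60-fold lower than in mutant CON (ratio 0.384, 0.330 to 0.446), a direction that turned without the length trend (log2 ratio 0.415). Mepce was 6.13-fold lower (0.163, 0.0660 to 0.352), Hexim1 4.59-fold lower (0.218, 0.0726 to 0.551), Larp7 3.75-fold lower (0.267, 0.139 to 0.486) and Cdk9 3.29-fold lower (0.304, 0.182 to 0.492). The cyclins again stayed near CON, at 1.15 for Ccnt1 (0.916 to 1.45) and 0.861 for Ccnt2 (0.725 to 1.02). Of the 7 genes, 5 were lower and 0 higher, against 32.2% lower and 22.1% higher among 10093 genes. Among the 1047 genes of 3 to 10 kb, 740 were lower and 45 higher.

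Set directly against WT FSK, mutant FSK had 6.49-fold less Rn7sk (ratio 0.154, 0.135 to 0.175), the second lowest ratio of 10087 genes. Only Peak1, which codes for a scaffold pseudokinase, was lower, with a log2 ratio of -4.36 against -2.70 for Rn7sk. Cdk9 was 2.02-fold higher in mutant FSK (1.03 to 4.06), Ccnt1 1.30-fold (1.06 to 1.60, under the 1.5-fold limit) and Mepce 1.53-fold higher on 8 counts against 7 (0.486 to 4.97). The backgrounds were 1.61% lower and 22.4% higher. Among the 1047 genes of 3 to 10 kb, 12 were lower and 659 higher. With Ex-4, Rn7sk was 1.502-fold higher in the mutant than in WT (1.37 to 1.64), barely past the threshold. Hexim1 was lower on 10 counts against 33 (ratio 0.472, 0.207 to 0.980), a call that uses the WT Ex-4 column that helped it past the filter. Of 10077 genes, 2.54% were higher and 9.17% lower.

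Ratios within a column do not depend on the column's total. Rn7sk had 6.54 counts for each count of Hexim1, Larp7 and Mepce together in WT CON beta cells (5.08 to 8.54), 6.81 in WT Ex-4 (5.74 to 8.14) and 77.9 in WT FSK (54.1 to 117). In the mutant the same ratio was 5.08 in CON (4.14 to 6.29), 10.1 in Ex-4 (8.17 to 12.5) and 8.93 in FSK (6.07 to 13.6). WT FSK thus stood alone, with an interval that overlapped none of the other 5 columns. In alpha cells the WT FSK ratio was 35.9 (17.96 to 83.9), on 8 counts of the 3 proteins, and the other 5 lay between 4.29 and 13.4. There the interval of mutant Ex-4 (9.63 to 19.15) overlapped that of WT FSK. In delta cells WT FSK gave 161 Rn7sk counts against 2 counts of the 3 proteins, a ratio of 80.5 (21.9 to 670), and the other 5 lay between 2.86 and 8.85.

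Against the cyclins, whose levels varied least, Rn7sk in beta cells had 0.699 counts per count of Ccnt1 and Ccnt2 in WT CON (0.619 to 0.789), 1.47 in WT Ex-4 (1.33 to 1.62) and 3.64 in WT FSK (3.33 to 3.99). The mutant gave 1.41 in CON (1.24 to 1.60), 2.35 in Ex-4 (2.09 to 2.64) and 0.564 in FSK (0.483 to 0.659). This order is that of the Rn7sk levels, except that the intervals of mutant CON and WT Ex-4 overlapped, as did those of WT CON and mutant FSK. These ratios set a very short gene against long ones, so the trend on gene length described below enters them. Its part in them was not tested.

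**Figure D2:**
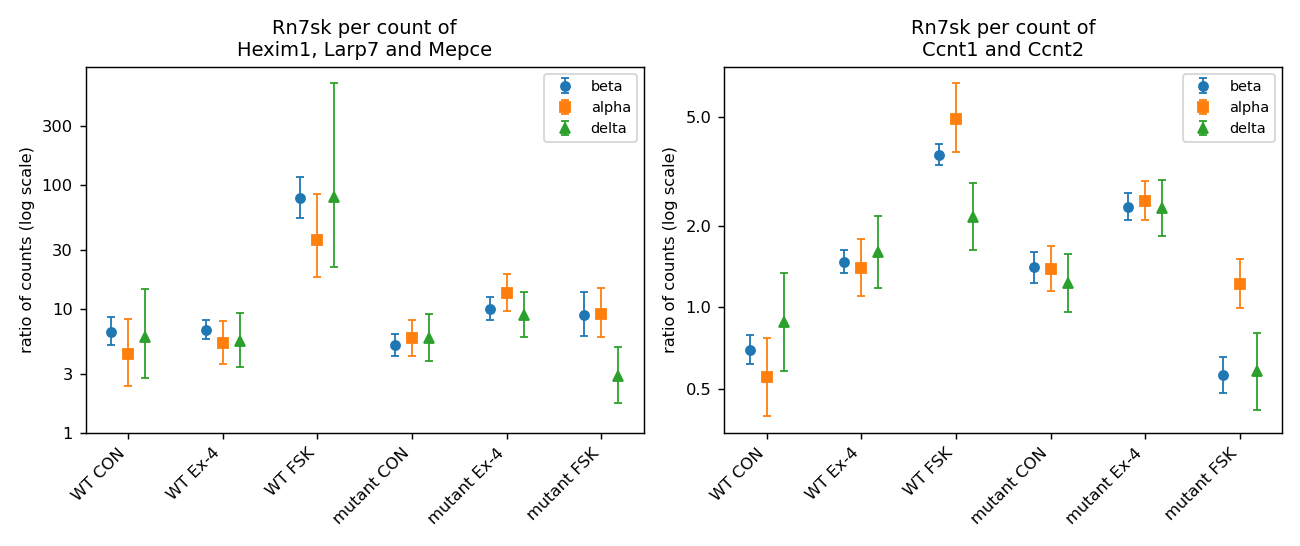
Counts of Rn7sk per count of Hexim1, Larp7 and Mepce together (left) and per count of Ccnt1 and Ccnt2 together (right) in beta, alpha and delta cells (y axes, ratio of counts, log scale), by condition; points are single pools and bars exact 95% intervals. On the left, WT FSK stands at 77.9 in beta, 35.9 in alpha and 80.5 in delta cells, above every other column; on the right, the WT FSK columns of beta and alpha cells stand above their other 5.

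Rn7sk levels in the other endocrine types had a similar, not identical, order of conditions. In alpha cells WT CON stood at 1.43 CP10K (60 counts), with 3.63 in WT Ex-4 (164), 10.7 in WT FSK (287), 3.21 in mutant CON (260), 6.42 in mutant Ex-4 (509) and 2.66 in mutant FSK (209). In delta cells it was 1.30 (47), 2.66 (115), 3.77 (161), 2.65 (150), 4.33 (239) and 0.998 (63) in the same columns. WT FSK was highest in alpha cells, while in delta cells mutant Ex-4 was highest and its interval (3.79 to 4.91) overlapped that of WT FSK (3.21 to 4.39). The lowest column was WT CON in alpha cells and mutant FSK in delta cells.

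FSK against CON in WT gave ratios of 7.44 in alpha cells (5.62 to 10.0) and 2.90 in delta cells (2.09 to 4.11). In the mutant it gave 0.829 in alpha cells (0.687 to 0.998) and 0.377 in delta cells (0.276 to 0.509). As deposited, FSK was thus on opposite sides of CON in the 2 genotypes in all 3 endocrine types, by the least in mutant alpha cells, where Rn7sk was not past 1.5-fold. With the length trend removed the mutant log2 ratios were 0.415 in beta, 0.39 in alpha and 0.15 in delta cells, the same sign as in WT, so under this fit the opposite direction was lost in all 3. In beta cells this depends on the fit. The 11 other kept genes of up to 0.5 kb had a median of -1.278 there, near the -1.381 of Rn7sk. Ex-4 against CON gave 2.54 in WT alpha cells (1.88 to 3.47), 2.00 in mutant alpha cells (1.72 to 2.33), 2.05 in WT delta cells (1.45 to 2.95) and 1.63 in mutant delta cells (1.33 to 2.02).

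The protein-coding members had too few counts in alpha and delta cells to repeat the beta pattern. In WT FSK alpha cells Hexim1 and Larp7 had 3 counts each, Mepce 2 and Cdk9 5, and the interval of each FSK ratio included 1. In mutant alpha cells with FSK the ratios were 0.495 for Larp7 (0.227 to 1.02), 0.397 for Mepce (0.111 to 1.18) and 0.493 for Cdk9 (0.217 to 1.05), again with intervals that include 1. Neither a difference from CON nor its absence was detectable for these genes at this depth.

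Rn7sk was highest in WT FSK in 7 of the 9 cell types. In neurons this rests on 3 counts. Over the 6 types other than beta, alpha and delta, summed, WT CON stood at 1.52 CP10K (1.09 to 2.07, 40 counts), with 2.70 in WT Ex-4 (2.03 to 3.52, 54 counts) and 8.27 in WT FSK (7.11 to 9.57, 181 counts). In the mutant these were 3.26 in CON (2.75 to 3.84, 145 counts), 5.41 in Ex-4 (4.71 to 6.19, 212 counts) and 1.95 in FSK (1.52 to 2.46, 71 counts). Endothelial columns gave 1.39 in WT CON and 7.56 in WT FSK (5.55 to 10.1), and macrophage columns 1.198 and 11.2 (8.41 to 14.6). Mutant FSK was below WT FSK with intervals that did not overlap in 7 of 9 cell types, the ones other than neurons and ductal cells. It was below mutant CON with intervals that did not overlap in 2, beta and delta cells.

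Among the 7 cell types with at least 5 Rn7sk counts in every condition, cell type means ran from 2.62 CP10K in delta cells to 4.80 in macrophages, a 1.84-fold span, while condition means ran from 1.53 to 8.02, a 5.24-fold span. Ductal columns held 0 to 7 counts, and neuron columns 0 to 36. The WT CON neuron column had 0 counts of 8995, where 3 counts would be 3.34 CP10K and the exact interval reaches 4.10.

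Cell type labels were compared with marker genes. Summed over each list, the markers of beta, alpha, delta, PP, endothelial, macrophage, ductal and muscle cells were highest in the columns of that name, the last on 2 genes in the table. Gene by gene, this held for 7 of 8 beta, 4 of 6 alpha, 4 of 4 delta and 1 of 2 PP markers. It held for 5 of 5 endothelial, 4 of 4 macrophage, 2 of 3 ductal and 1 of 2 muscle markers in the table. The neuron markers were higher in delta columns (22.2 CP10K summed) than in neuron columns (10.1), so that label is not borne out by them. Markers of beta cells, at 52.1 CP10K summed over 8 genes in beta columns, also appeared at 5.29 to 21.7 in every other type. The part of RNA from beta cells in the Rn7sk counts of the rarer types was not tested. The macrophage WT FSK level of 11.2 CP10K (8.41 to 14.6) was above the beta level of 7.30 in the same condition. In pooled nuclei, more 7SK per nucleus and less of all other RNA cannot be told apart.

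**Figure D3:**
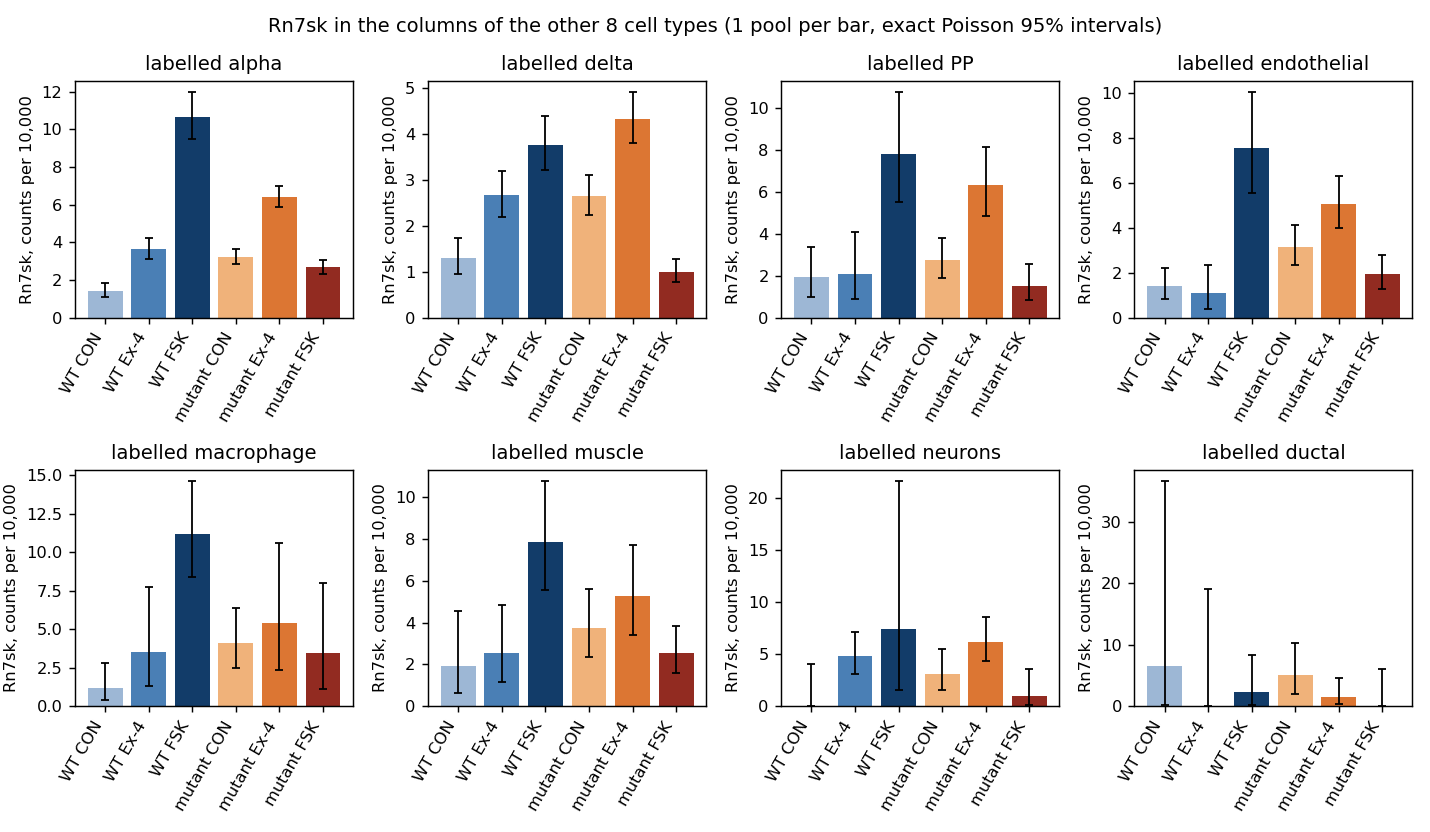
Rn7sk (y axis, counts per 10,000, bars from 0, own scale in each panel) in the columns labelled with the other 8 cell types; each bar is 1 pool and error bars are exact Poisson 95% intervals. WT FSK is the highest bar in 6 of these 8 types, the ones other than delta and ductal cells, and neuron and ductal columns have wide intervals because they hold few counts.

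Gene length separated the columns, and it has to be read beside each ratio. Over all kept beta cell genes the log2 ratio ran with length in 5 of the 7 comparisons. With Ex-4 in WT, genes of 3 to 10 kb had a median of 0.94 and genes over 100 kb a median of -0.42. For mutant CON against WT CON these medians were 0.91 and -0.59, for FSK in WT -0.96 and 0.00, for FSK in the mutant -1.02 and 0.55, and for mutant FSK against WT FSK 0.79 and -0.06. Short genes were thus higher in WT Ex-4 and mutant CON than in WT CON, and lower in both FSK columns than in the CON column of the same genotype. With Ex-4 in the mutant the medians were only -0.08 and 0.00.

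The protein-coding members lay mostly on the side of their length class. Hexim1 (chr11:103007057-103010551, plus strand, 3.50 kb), Mepce (chr5:137779652-137785917, minus, 6.27 kb) and Cdk9 (chr2:32595794-32603589, minus, 7.80 kb) are short genes and went with the short class. Larp7 (chr3:127329247-127347017, minus, 17.8 kb) had log2 ratios of 1.19 with Ex-4 in WT and -1.91 with FSK in the mutant, where its class of 10 to 30 kb had medians of 0.47 and -0.48. Ccnt1 (chr15:98436570-98468804, minus, 32.2 kb) and Ccnt2 (chr1:127701901-127735798, plus, 33.9 kb) are the long members and the ones that varied least. Apart from Rn7sk, each member overlaps annotated genes on the opposite strand or microRNA genes, and reads in those stretches may be shared.

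Rn7sk went with the short genes in WT Ex-4, mutant CON and mutant FSK and against them in WT FSK. Only 25 other kept genes were at most 1 kb long. Their median log2 ratio was 1.03 with Ex-4 in WT, where Rn7sk had 1.17, and 1.23 for mutant CON against WT CON, where Rn7sk had 0.95. With FSK in the mutant the median was -1.91 and Rn7sk had -1.38. With FSK in WT the median was -1.39, 22 of the 25 were lower by 1.5-fold and 1 was higher, and Rn7sk had 2.26. None of these 25 exceeded 0.60 in that comparison. Between the FSK columns, 14 of 23 such genes were higher in the mutant and 0 lower (median 1.01), where Rn7sk had -2.70. When the trend on length was removed, the Rn7sk log2 ratio became -0.33 with Ex-4 in WT, -0.77 for mutant CON against WT CON and 0.415 with FSK in the mutant, so those directions turned, and 4.08 with FSK in WT. In alpha cells the sign changed for mutant CON against WT CON and for FSK in the mutant, and in delta cells for all 3. Mepce with Ex-4 in WT and between the FSK columns, and Hexim1 with FSK in WT, also changed sign. With Ex-4 in the mutant, where length carried little, the median of the short genes was -0.02 and Rn7sk had 0.81. The 11 other kept genes of up to 0.5 kb had medians of 1.185 (Ex-4 in WT), 1.415 (mutant CON against WT CON) and -1.278 (FSK in the mutant). Rn7sk was below each of these medians, while the fitted trend placed it above with FSK in the mutant.

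**Figure D4:**
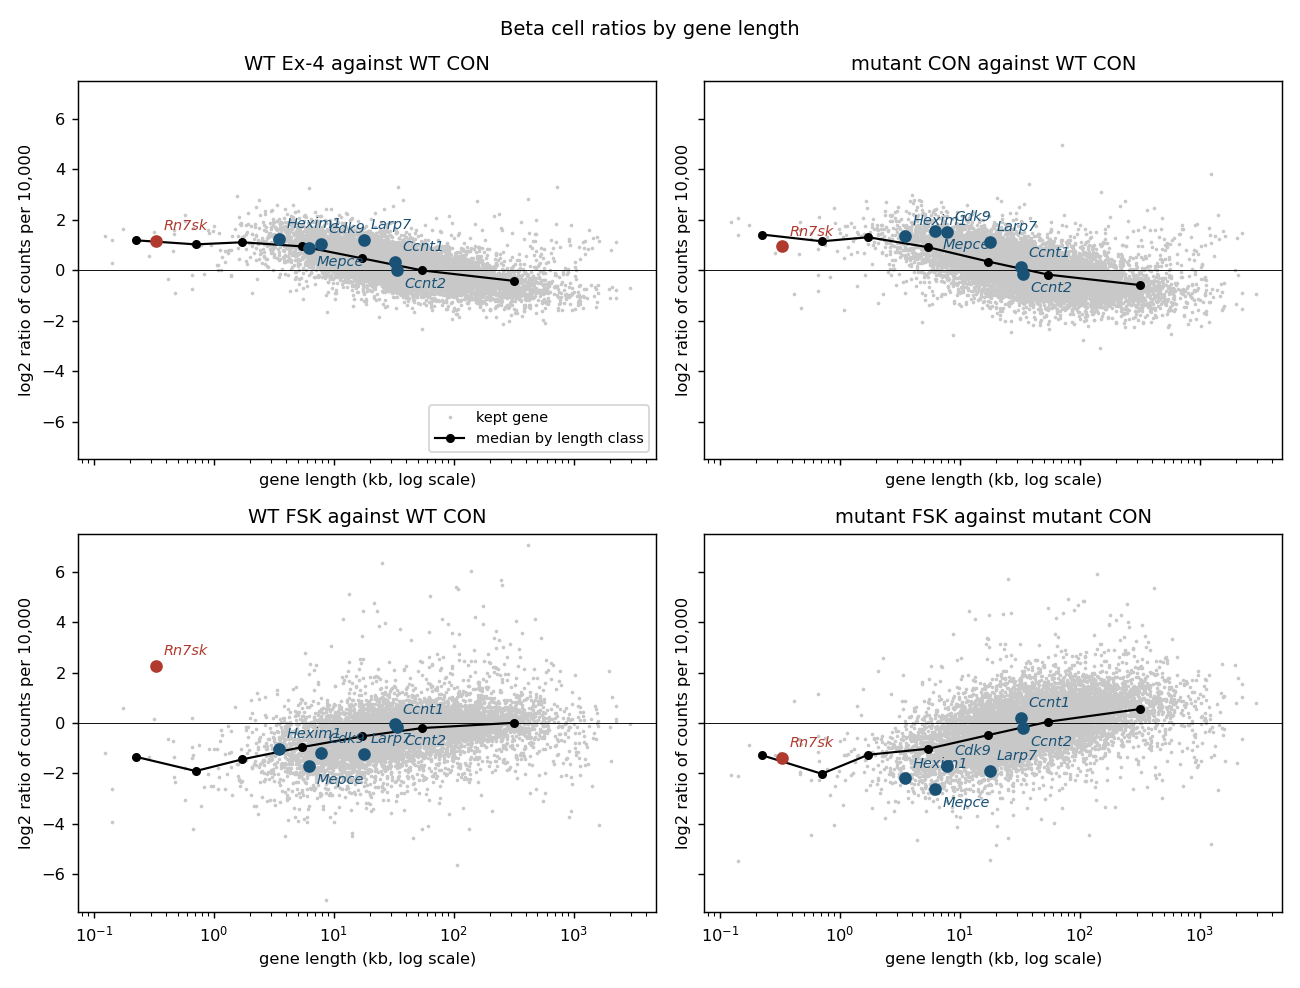
Log2 ratio of counts per 10,000 in beta cells (y axis) against gene length in kilobases (x axis, log scale) for 4 comparisons; grey points are kept genes, black points the medians of 7 length classes without Rn7sk, the red point Rn7sk and blue points the other members. In WT FSK against WT CON, Rn7sk lies at 2.26 while the short genes around it have a median of -1.39; in the other 3 panels it lies near the short genes.

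Among other noncoding RNAs, the closest in size and origin was Rpph1, the 319-base RNA of RNase P, which is also made by RNA polymerase III. In beta cells it was 0.249 CP10K without treatment in WT (75 counts), 0.708 in WT Ex-4 (211), 0.281 in WT FSK (87), 0.457 in mutant CON (88), 0.804 in mutant Ex-4 (154) and 0.200 in mutant FSK (46). Rn7sk had 6.11 counts per count of Rpph1 in WT CON (4.78 to 7.90), 4.84 in WT Ex-4 (4.17 to 5.64), 6.41 in mutant CON (5.11 to 8.12), 6.403 in mutant Ex-4 (5.397 to 7.64) and 5.63 in mutant FSK (4.10 to 7.88). In WT FSK the ratio was 26.0 (20.96 to 32.6). The intervals of the other 5 columns all overlapped one another, and none overlapped that of WT FSK. In WT FSK Rpph1 was 1.13-fold of WT CON (0.820 to 1.56) where Rn7sk was 4.80-fold. In alpha cells the ratio was 15.1 in WT FSK (9.50 to 25.5) and 3.75 to 6.36 in the other 5 columns, and in delta cells 16.1 (8.53 to 34.2) and 3.62 to 9.96. The delta WT FSK ratio rests on 10 Rpph1 counts, and its interval overlapped that of every other delta column except WT CON. This pairing was chosen after the values were seen.

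In beta cells the ribosomal RNAs were likewise above WT CON in both Ex-4 columns and mutant CON and below it in mutant FSK, but they were below it in WT FSK too. Rn18s-rs5, a copy of 18S ribosomal RNA, stood at 212 CP10K in untreated WT, 567 in WT Ex-4, 747 in mutant CON, 914 in mutant Ex-4 and 151 in mutant FSK, and 175 in WT FSK. The mitochondrial 12S RNA mt-Rnr1 was 0.817, 1.65, 1.397, 3.36 and 0.321 in those columns and 0.145 in WT FSK, 5.61-fold below WT CON. Of the 9 other noncoding RNAs that passed the filter (of 12 in the table), 1 was higher with FSK in WT, Neat1, the scaffold of paraspeckles (3.15-fold, 3.03 to 3.28), and 4 were lower, where 6.98% of all kept genes were higher and 33.6% lower. Neat1 was higher with FSK in the mutant too (2.46-fold, 2.36 to 2.56), unlike Rn7sk.

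**Figure D5:**
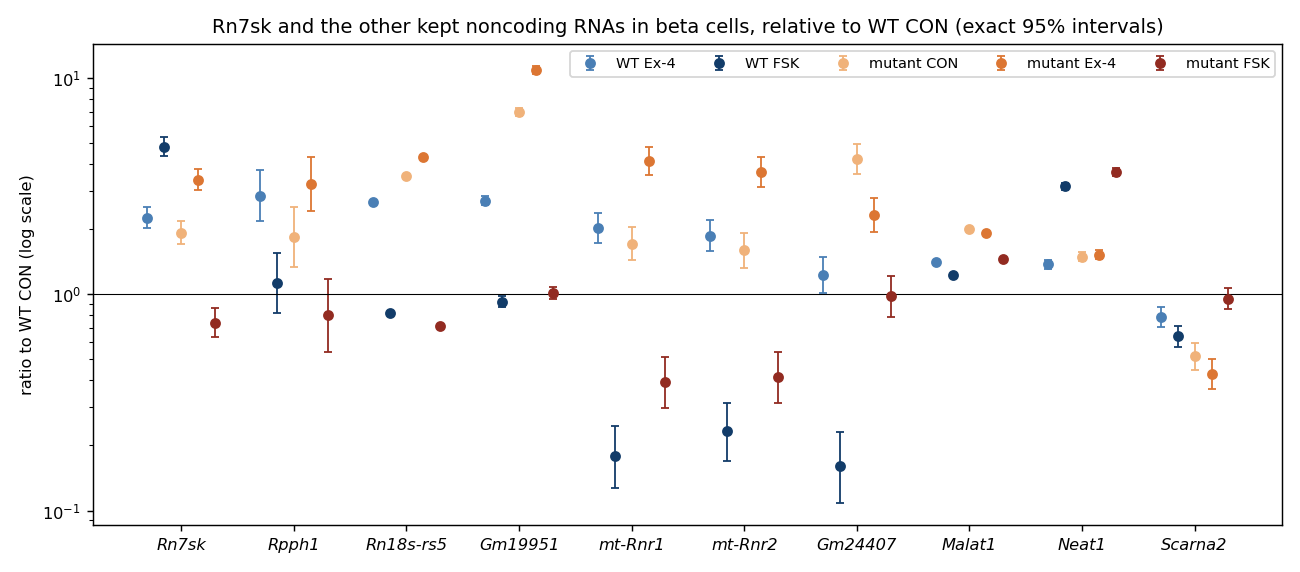
Ratio to WT CON (y axis, log scale) of Rn7sk and the 9 other kept noncoding RNAs in beta cells, 1 colour per condition; points are single pools and bars exact 95% intervals. Rn7sk is at 4.80 in WT FSK, where Rpph1 is at 1.13 and mt-Rnr1 at 0.178, and it lies with Rpph1 in the other conditions.

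The pathway around the members was described by lists chosen by function. Of 25 kept genes of P-TEFb release and the super elongation complex, 10 were higher and 4 lower past 1.5-fold with Ex-4 in WT, with a median log2 ratio of 0.39 against 0.16 for all kept genes, of which 27.5% were higher and 12.4% lower. With FSK, 3 were higher and 7 lower in WT (median -0.07 against -0.31), and 6 were higher and 10 lower in the mutant (-0.33 against -0.14). The backgrounds were 6.98% and 33.6% for WT, against 22.1% and 32.2% for mutant islets. Ell2, an elongation factor of the super elongation complex, was higher with FSK in both genotypes, 2.73-fold in WT (2.42 to 3.10) and 3.98-fold in the mutant (3.34 to 4.75). Eaf1, a partner of Ell, was 2.79-fold higher in WT with FSK (1.97 to 4.01). Jmjd6, a demethylase linked to P-TEFb release, was 3.13-fold lower there, and Htatsf1 was 2.78-fold higher with Ex-4 in WT (2.14 to 3.64) and 3.96-fold lower with FSK in the mutant.

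Of 28 kept genes of pausing and elongation, 14 were higher and 2 lower with Ex-4 in WT (median 0.60 against 0.16, backgrounds 27.5% and 12.4%), and 1 was higher and 0 lower with Ex-4 in the mutant (-0.01 against -0.04, backgrounds 4.42% and 5.63%). With FSK, 1 was higher and 9 lower in WT (-0.33 against -0.31), counts near the backgrounds of 6.98% and 33.6%. In the mutant 4 were higher and 11 lower (-0.40 against -0.14, backgrounds 22.1% and 32.2%). Nelfcd, a subunit of the pausing factor NELF, was 3.35-fold higher with Ex-4 in WT (2.06 to 5.67) and 4.79-fold lower with FSK in the mutant. Gtf2b, a general initiation factor, was the gene of this list higher with FSK in WT (1.86-fold, 1.36 to 2.55), and it was 3.34-fold higher in the mutant (2.28 to 5.02).

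Genes that transcribe or bind 7SK were described in the same way. Of 30 kept genes of RNA polymerase III, its 7SK promoter factors and 7SK-binding proteins, 0 were higher and 5 lower past 1.5-fold with FSK in WT (median -0.29 against -0.31 for all kept genes), where 6.98% of all kept genes were higher and 33.6% lower, so few of 30 would be higher at that share. With FSK in the mutant 4 were higher and 12 lower (-0.36 against -0.14, backgrounds 22.1% and 32.2%). Among these, Polr3gl, a polymerase III subunit, was 2.29-fold lower with FSK in WT (ratio 0.438, 0.326 to 0.582), and Polr3f 2.09-fold lower (0.479, 0.296 to 0.759). Maf1, a repressor of RNA polymerase III, was 4.87-fold higher in mutant CON than in WT CON (2.23 to 11.7), and with FSK in WT it had 3 counts (ratio 0.324, 0.0565 to 1.30). Ssb, the La protein, was 2.48-fold higher with Ex-4 in WT (2.07 to 2.99) and 2.28-fold lower with FSK in the mutant. With Ex-4 in WT, 12 of the 30 were higher and 1 lower (median 0.36 against 0.16, backgrounds 27.5% and 12.4%). With Ex-4 in the mutant, 1 gene of this list was higher, Polr3k (3.45-fold, 1.44 to 9.47), and 1 lower, counts near the backgrounds of 4.42% and 5.63%. Between untreated genotypes the mutant was higher for 8 and lower for 4 genes of release, 11 and 3 of pausing and 12 and 2 of 7SK transcription and binding, with medians of 0.46, 0.41 and 0.37 against 0.00 for all kept genes and backgrounds of 25.5% higher and 22.3% lower. Between the FSK columns the same lists gave 4 and 1, 9 and 0, and 7 and 0, with medians of 0.15, 0.23 and 0.11 against 0.16 and backgrounds of 22.4% higher and 1.61% lower.

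A cAMP response element, the DNA site that CREB binds, was looked for in promoters because Ex-4 and FSK act through cAMP. The search was chosen after the data were seen. RefSeq promoters (GRCm38.p6, 250 bases before to 50 after the start) were at hand for 5 of the 7 genes, and those of Rn7sk and Mepce were not analysed here. The full site TGACGTCA, which reads the same on both strands, was found in Larp7 only, where it occurs 2 times. The Larp7 promoter (chr3:127553300-127553599, minus strand) is shown with both sites in capitals, the first base of each at -121 and 3 relative to the start.
Larp7 promoter: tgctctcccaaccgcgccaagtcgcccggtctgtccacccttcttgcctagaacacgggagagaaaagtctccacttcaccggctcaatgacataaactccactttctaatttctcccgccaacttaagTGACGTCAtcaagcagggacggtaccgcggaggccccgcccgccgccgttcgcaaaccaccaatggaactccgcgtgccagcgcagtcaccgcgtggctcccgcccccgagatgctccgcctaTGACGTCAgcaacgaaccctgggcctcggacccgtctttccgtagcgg
Of 32851 promoters, 588 (1.79%) held the full site and 13 held it at least 2 times, while the shorter TGACG, on either strand and also counted inside full sites, was in 20.8%. The Larp7 levels in WT beta cells, given above, were 0.258 CP10K with Ex-4 and 0.0485 with FSK, against 0.113 without either. A match is a description of the letters and not of binding.

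Genes whose pattern was most like that of Rn7sk were ranked over 18 points, the 6 conditions in beta, alpha and delta cells, by the correlation of log2(CP10K + 1) centred within each cell type. These points share columns and totals, so the values are a description. Peak1 was first of 8559 genes (r = 0.68), and its beta cell levels were 0.508 CP10K (WT CON), 0.570 (WT Ex-4), 5.17 in WT FSK, 0.649 in mutant CON, 0.491 in mutant Ex-4 and 0.252 in mutant FSK. It was followed by Polr3e (0.61), Banp (0.59), Mroh7 (0.59), Scg2 (0.57), Hdlbp (0.57), Cdk8 (0.57), Mdn1 (0.57), Zfp146 (0.56) and Dlg5 (0.55). Least like Rn7sk were Tmem168 (-0.83), Soat1 (-0.80), Gm20045 (-0.79), Tiprl (-0.79) and Klhl12 (-0.77). Among the members, r was 0.24 for Cdk9, 0.14 for Ccnt2, 0.13 for Mepce, 0.12 for Hexim1, -0.02 for Larp7 and -0.09 for Ccnt1.

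When the 3 WT FSK columns were left out, none of those 10 genes was among the 10 most like Rn7sk. The gene at the top was then mt-Rnr1 (r = 0.96), followed by Cmss1 (0.95), Kdm6b (0.94), Rexo1 (0.94), Camk1d (0.94), Lars2 (0.93), Gm15564 (0.93), Rn18s-rs5 (0.93), Lrp1b (0.93) and Cnot3 (0.93). Of these, mt-Rnr1, Cmss1, Camk1d, Lars2 and Rn18s-rs5 belong, like Cdk8, to the genes treated as linked to ribosomal RNA or mitochondria. Over these 15 points r was 0.73 for Larp7, 0.73 for Cdk9, 0.61 for Mepce and 0.53 for Hexim1, against 0.32 for Ccnt1 and 0.26 for Ccnt2.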

How the data were processed

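Nuclei were profiled by combinatorial barcoding in 8 sublibraries, each with all 6 conditions. The authors aligned reads to mm39, removed nuclei at the extremes of counts, genes or mitochondrial share, and assigned cell types, and they deposited natural log values, ln(1 + CP10K), for 17362 genes in 54 columns of pooled nuclei. The sources used here do not name the annotation release. Undoing the log gave whole counts (largest distance 4.73e-05 of a count). Ratios are of CP10K, with 0 set to a floor of 3 counts. Genes were kept from the 40th percentile of the cell type mean (10093 in beta cells). A call means a 1.5-fold ratio. With 1 pool per condition no test was run.

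The members and lists were chosen with earlier results of these data known. All members are named, with up to 3 list genes each way past 1.5-fold and the 10 genes most like and 5 least like Rn7sk; others are said to be chosen after their values were seen. Loci and lengths came from GENCODE M39 (GRCm39), in which 16531 genes matched by name. Intervals are exact (95%). Count recovery, 1.5-fold calls and ratio intervals were tested on simulated data, and the length trend, correlations and sequence searches were not. Intervals came from scipy 1.17.1, the length trend from statsmodels 0.14.6, alignments from blastn 2.17.0+, and tables and figures from pandas 2.3.3, numpy 2.4.6 and matplotlib 3.10.9 under Python 3.11.15.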

Additional observations from a re-analysis of the deposited data

Results flagged for a closer look

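In beta cells Rn7sk went in opposite directions with FSK in the 2 genotypes, with a log2 ratio to CON of 2.26 in WT and -1.38 in the mutant, a difference of 3.65 (3.645). The same held in alpha cells (2.90 in WT and -0.27 in the mutant, difference 3.17) and in delta cells (1.54 and -1.41, difference 2.95). Hexim1 in beta cells went in opposite directions with Ex-4 (1.25 in WT and -1.19 in the mutant, difference 2.45), on 33 counts against 14 and 10 against 23. Only its WT Ex-4 and mutant CON levels, which both enter here, were above the filter. In each case both counting intervals lay away from a ratio of 1, barely so in mutant alpha cells (0.687 to 0.998). With the trend on gene length removed, the mutant FSK values of Rn7sk were 0.415 in beta, 0.39 in alpha and 0.15 in delta cells, so both genotypes then had the same sign. With 1 pool per condition none of these differences was tested, and genotype and treatment cannot be told apart from the islet preparation.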

How the results depend on the processing

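No paired analysis was possible because each condition is 1 pool, and no replicate could be left out. Of 105 alternative Rn7sk values, 78 lay within the counting interval and 20 outside it, and 7 values past 1.5-fold turned. Leaving 12 genes linked to ribosomal RNA or mitochondria out of the totals, and a pseudocount of 0.1 CP10K, moved none of them.

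Removing the length trend, which rests on few genes this short, turned Rn7sk to -0.33 (beta, Ex-4 in WT), -0.77, -0.24 and -0.59 (mutant CON against WT CON in beta, alpha and delta cells), 0.415 and 0.15 (FSK in the mutant, beta and delta) and -0.38 (delta, Ex-4 in WT). It moved Rn7sk to 4.08 and 2.52 with FSK in WT (beta and delta), to -4.215, -2.825 and -2.845 for FSK between genotypes (beta, alpha, delta), and to 0.11 with Ex-4 in WT alpha cells. With FSK in mutant alpha cells, where Rn7sk was not past 1.5-fold (-0.27), the sign changed too, to 0.39. Removing the trend also turned Mepce to -0.082 (Ex-4 in WT) and -0.14 (FSK between genotypes) and Hexim1 to 0.10 (FSK in WT).

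Differences of log2(CP10K + 1), which shrink low levels by construction, were 0.81, 0.65, 0.64, 1.72, -0.89 and -1.97 for Rn7sk in beta cells (Ex-4 in WT, Ex-4 in the mutant, mutant CON, FSK in WT, FSK in the mutant, FSK between genotypes), 2.26 and -1.67 in alpha cells (FSK in WT and between genotypes), and 1.05, -0.87 and -1.25 in delta cells (FSK in WT, in the mutant and between genotypes). The median of kept beta cell genes was shifted by 0.16 with Ex-4 in WT, 0.16 between the FSK columns, -0.17 between the Ex-4 columns, -0.31 with FSK in WT and -0.14 with FSK in the mutant. Setting it to 0 moved Rn7sk to 2.58 with FSK in WT and to 0.76 for Ex-4 between genotypes.

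Members past 1.5-fold in beta cells (5, 2, 5, 5, 5, 3 and 2 over the 7 comparisons) were 1 in 6 comparisons and 0 for Ex-4 between genotypes on the log2(CP10K + 1) scale, and 1 in all 7 with a filter at the 75th percentile, which keeps only 3 members. They were 3, 1, 1, 1 and 0 with the pseudocount (Ex-4 in WT, Ex-4 in the mutant, FSK in WT, FSK between genotypes, Ex-4 between genotypes). They were 1 and 1 at 2-fold (Ex-4 in the mutant and between genotypes), and 1 and 3 without the length trend (Ex-4 and FSK in WT). The shares of all kept genes past the limit under these alternatives are not given, so whether the members changed more than other genes cannot be read from these counts. The correlation of the 10th gene most like Rn7sk was 0.55, and 0.93 without WT FSK, an alternative chosen after seeing the data.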
